A study of Mus musculus with 3 samples.

Results

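The 10 genes described here encode transcription factors that drive the formation of fat cells: Pparg, Cebpa, Cebpb, Cebpd, Srebf1, Ebf1, Ebf2, Klf15, Rxra and Zfp423. They were picked by name, out of 21887 protein-coding genes in the RefSeq annotation. The data are lists of methylated regions in epididymal fat, a visceral fat depot, from male C57BL/6J mice that were 6 weeks old when the diets began and 16 weeks old at sampling. The FAD group had a high-fat diet with about 60% of its energy from fat and drank water with 20 μg/mL folic acid for 10 weeks. The HFD group had the same diet without folic acid, and the ND group a normal diet with about 10% of its energy from fat. Each diet is 1 library, and the labels do not say whether it came from 1 animal or from a pool, so no difference below has a replicate check or a test.

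In methylated DNA immunoprecipitation sequencing (MeDIP-seq), an antibody against 5-methylcytosine pulls down methylated fragments, and stretches with an excess of reads are called as peaks. The pull-down depends on how many methylated CpGs a fragment holds, so a CpG-poor stretch can be methylated and give no peak. Whole fat tissue was used, and a change in methylation within a cell type and a change in the mix of cell types cannot be told apart in it.

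In the known order of fat cell formation, C/EBPbeta and C/EBPdelta come early and switch on the genes for PPARgamma and C/EBPalpha. PPARgamma is a nuclear receptor and the master regulator of adipocytes. It binds DNA together with RXRalpha, the product of Rxra, and keeps C/EBPalpha and the lipid genes on in the mature cell. SREBP1, from Srebf1, drives fatty acid synthesis, and KLF15 acts with the C/EBP proteins and on glucose uptake. ZFP423 commits precursors to the fat lineage, EBF1 promotes adipogenesis, and EBF2 marks brown and beige precursors.

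Peaks were counted within each gene record plus 5000 bp on each side, here called the window. Together the 10 windows held 47 peaks in FAD, 85 in HFD and 50 in ND. By count, most peaks lay in the long genes Ebf1, Ebf2 and Zfp423. They held 42 of the FAD peaks, 72 of the HFD peaks and 43 of the ND peaks. At the other end, the windows of Cebpa and Cebpd held no peak in any library. Pparg, with a record of 129526 bp, held 1 in FAD, 1 in HFD and 0 in ND. These counts are not scaled to record length. Per 100 kb of window, Ebf1 had 2.75 peaks in FAD, 5.50 in HFD and 2.25 in ND. The medians over genes with records of 100000 bp or more were 3.37, 5.33 and 3.64. At least 1 window peak was found at 7 of the 10 genes in FAD, 8 in HFD and 6 in ND, where the shares of all protein-coding genes were 69.1%, 77.9% and 71.7%. The shares of the 10 genes lie near those. Per 100 kb of window the 10 genes had 3.71 peaks in FAD, 6.71 in HFD and 3.95 in ND, against 4.19, 6.26 and 4.57 for all protein-coding genes. Long genes hold most of these peaks, and over the 2429 protein-coding genes with records of 100000 bp or more the densities were 3.46, 5.25 and 3.70, so the 10 genes lie below the first background in FAD and ND and above the second in each library.

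**Figure D1:**
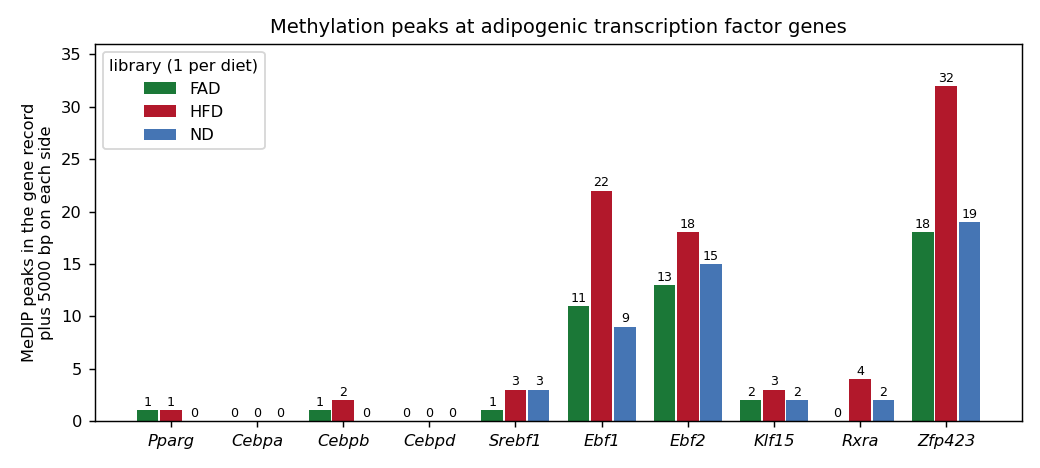
Number of MeDIP peaks (y axis) in the window of each of the 10 genes (x axis), with 1 bar per library. Zfp423, Ebf1 and Ebf2 hold most peaks, with 32, 22 and 18 in HFD, while Cebpa and Cebpd hold none.

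The lists themselves differ in length and width, which bears on every count below. FAD had 95501 peaks over 49.2 Mb, HFD 135124 over 89.1 Mb and ND 101532 over 59.6 Mb, and the median peak was 447, 587 and 507 bp wide. Each peak carries a score from the authors, at least 50 in every list and on a scale the sources used here do not state, so a score is given with its percentile among the peaks of its own library. Markers of cell types in or beside this depot were read in the same windows. Peaks were found at 7 of 10 fat cell markers in FAD, 9 in HFD and 8 in ND, at 6, 8 and 6 of 10 leukocyte markers, at 8 of 10 markers of progenitors and mesothelium in each library, at all 5 endothelial markers in each, and at 0, 4 and 1 of 5 epididymis markers. Of all protein-coding genes, 69.1% had a window peak in FAD, 77.9% in HFD and 71.7% in ND. A peak is no measure of expression, and the part of cell mix in the counts was not tested.

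The annotated start sites of 8 of these genes were nearly free of peaks. RefSeq promoter entries matched 8 of the 10 genes, with 15 start sites, and no entry was matched for Ebf2 and Cebpd. Around these sites, from 2000 bp upstream to 500 bp downstream, no FAD peak, 1 HFD peak and no ND peak was found. Over 21263 start sites of protein-coding genes, 8.59% of such start windows held a peak in FAD, 14.1% in HFD and 9.75% in ND, so an almost empty set of 15 is close to the background. The peak was at Srebf1. Ebf2, with no start site set here, had an ND peak that ended 1026 bp outside the lower end of its record. The sequences before 7 of the start sites are shown for their range of CpG content, and that of Srebf1 because its start window held the peak. Each is the 250 bases before the start from RefSeq, build GRCm38.p6, on the strand of the gene and 5′ to 3′, with every CpG in capitals.
Pparg, first start, chr6:115360894-115361143, plus strand: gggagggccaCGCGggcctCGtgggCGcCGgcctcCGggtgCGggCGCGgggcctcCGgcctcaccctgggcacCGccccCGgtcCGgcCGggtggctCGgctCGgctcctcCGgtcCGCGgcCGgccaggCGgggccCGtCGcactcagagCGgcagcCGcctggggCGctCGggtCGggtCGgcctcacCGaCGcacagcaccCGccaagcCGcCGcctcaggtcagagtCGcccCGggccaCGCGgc
Pparg, internal start, chr6:115421816-115422065, plus strand: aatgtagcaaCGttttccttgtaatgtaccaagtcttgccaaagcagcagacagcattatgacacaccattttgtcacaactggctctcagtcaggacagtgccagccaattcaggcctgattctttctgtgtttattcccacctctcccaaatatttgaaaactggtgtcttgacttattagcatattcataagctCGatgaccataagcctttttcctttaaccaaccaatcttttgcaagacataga
Cebpa, chr7:35119043-35119292, plus strand: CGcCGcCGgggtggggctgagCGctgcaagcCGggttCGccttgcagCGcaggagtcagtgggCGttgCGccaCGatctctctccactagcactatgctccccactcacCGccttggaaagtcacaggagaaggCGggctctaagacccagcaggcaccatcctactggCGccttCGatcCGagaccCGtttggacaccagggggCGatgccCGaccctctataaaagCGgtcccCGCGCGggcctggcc
Cebpb, chr2:167688665-167688914, plus strand: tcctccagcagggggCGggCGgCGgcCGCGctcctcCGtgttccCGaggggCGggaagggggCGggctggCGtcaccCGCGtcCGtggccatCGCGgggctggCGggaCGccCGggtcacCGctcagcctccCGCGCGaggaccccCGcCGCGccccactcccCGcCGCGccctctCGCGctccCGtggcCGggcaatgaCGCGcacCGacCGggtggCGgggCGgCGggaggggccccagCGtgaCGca
Srebf1, first start, chr11:60222582-60222831, minus strand: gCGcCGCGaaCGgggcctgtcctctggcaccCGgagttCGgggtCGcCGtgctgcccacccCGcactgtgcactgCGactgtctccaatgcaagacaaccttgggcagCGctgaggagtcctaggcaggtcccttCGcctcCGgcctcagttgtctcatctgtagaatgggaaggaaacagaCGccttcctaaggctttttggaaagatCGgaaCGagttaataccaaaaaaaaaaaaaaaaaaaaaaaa
Ebf1, first start, chr11:44617850-44618099, plus strand: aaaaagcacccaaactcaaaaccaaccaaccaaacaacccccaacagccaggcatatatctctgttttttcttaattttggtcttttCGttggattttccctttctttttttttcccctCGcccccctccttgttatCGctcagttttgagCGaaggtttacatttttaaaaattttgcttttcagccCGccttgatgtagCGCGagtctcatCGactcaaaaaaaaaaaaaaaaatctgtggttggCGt
Zfp423, first start, chr8:87959596-87959845, minus strand: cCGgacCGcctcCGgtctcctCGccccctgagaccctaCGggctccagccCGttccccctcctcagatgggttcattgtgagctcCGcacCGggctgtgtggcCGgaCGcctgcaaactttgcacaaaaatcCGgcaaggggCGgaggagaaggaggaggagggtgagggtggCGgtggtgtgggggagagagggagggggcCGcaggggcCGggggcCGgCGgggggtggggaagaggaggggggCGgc

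CpG content varied widely among these promoters. Cebpb held 41 CpGs in its 250 bases, more than 98.6% of all protein-coding promoters, and the first start of Pparg held 38. The internal start of Pparg, at 115422066, held 2 CpGs. Between them stood Cebpa with 22, the first start of Zfp423 with 18, that of Srebf1 with 16 and that of Ebf1 with 9. Over all 15 promoters the median was 16 CpGs, with a range of 1 to 41, and over the 21263 promoters it was 10. Of the 15, 8 held 15 or more CpGs, a class in which 6.18% of all start windows had a peak in FAD, 10.8% in HFD and 7.27% in ND. The GC box GGGCGG, which contains a CpG, was found on either strand in 9 of the 15 promoters and in 42.6% of all promoters. The C/EBP-type motif TTNNGNAA was found in 5 of the 15 and in 34.0% of all, and the direct repeat called DR1, the PPARgamma and RXRalpha element, in none of the 15 and in 0.0423% of all.

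**Figure D2:**
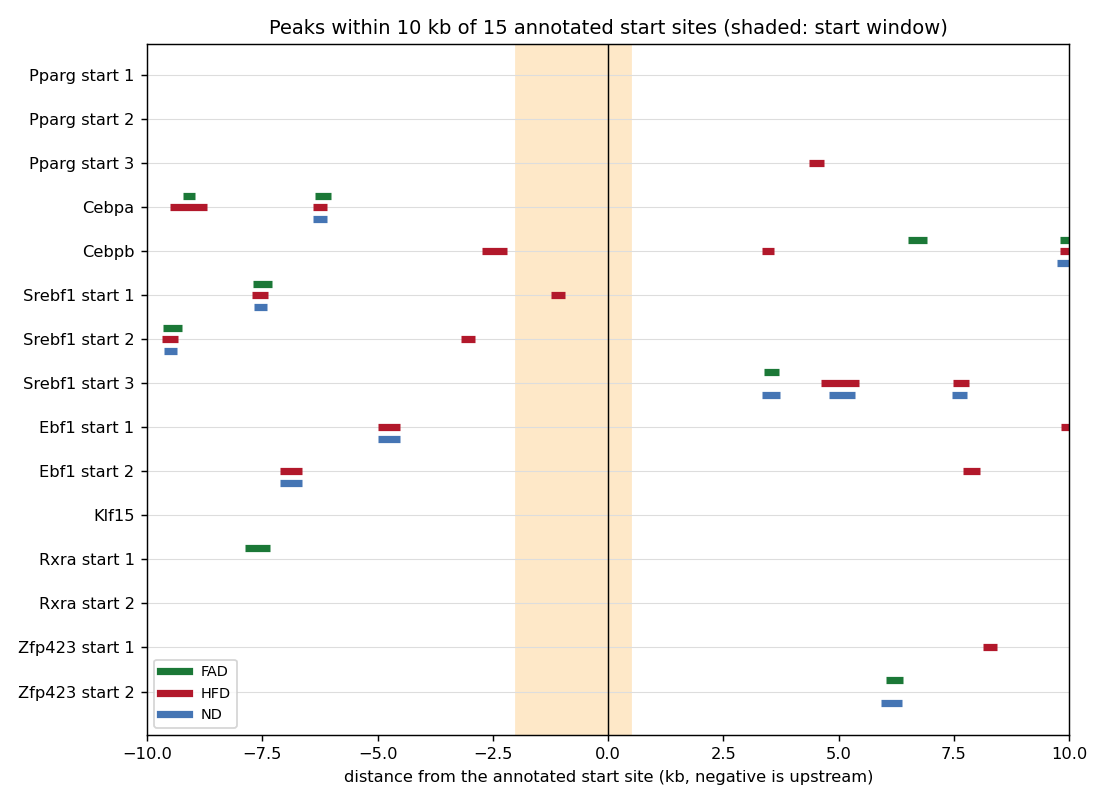
Peaks (coloured bars) within 10 kb of the 15 annotated start sites, with distance along the gene's strand in kb on the x axis and the start window of 2000 bp upstream to 500 bp downstream shaded. The shaded band holds 1 peak, the HFD peak of Srebf1 at 939 bp upstream.

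Pparg (chromosome 6, 115360879 to 115490404) was the emptiest of the long genes here. In FAD its 1 peak lay at 115448002 to 115448351, with a width of 350 bp and a score of 62.4, at percentile 15.7 of the FAD list. HFD had 1 peak at 115426411 to 115426745, with a width of 335 bp and a score of 76.5, at percentile 32.5, and the nearest ND peak lay 9768 bp outside the record. The FAD and HFD peaks lay 21257 bp apart, so each is a region of its own library. Relative to the internal start, the HFD peak began 4345 bp downstream and the FAD peak 25936 bp downstream. Upstream of the first start, the nearest peaks were 12670 bp away in FAD, 12648 bp in HFD and 12589 bp in ND, with scores of 157, 236 and 77.6. Among 2429 protein-coding genes with records of 100000 bp or more, 6.55% had at most 1 FAD peak, 3.21% at most 1 HFD peak and 2.43% no ND peak.

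Rxra, whose product is the partner of PPARgamma (chromosome 2, 27676445 to 27763319), had 0 peaks in FAD, 4 in HFD and 2 in ND. All of them lay in the part of the record far from its start. The 4 HFD peaks had scores between 62.2 and 79.6, the strongest at 27739128 to 27739718, and the ND peaks had scores of 75.5 and 53.2. Both ND peaks overlapped an HFD peak, at 27748496 to 27749070 and at 27756043 to 27756595. Another HFD peak, at 27756693 to 27757146, began 98 bp beyond an ND peak. The nearest FAD peak lay 6571 bp outside the record. None of the scores passed percentile 35.3 of its list, so these are weak peaks in HFD and ND. Upstream of the first start, which has 40 CpGs, the nearest FAD peak was 7327 bp away.

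The C/EBP genes are short, and the starts of Cebpa and Cebpb had no peak within 2000 bp. Cebpa (chromosome 7, 35119293 to 35121928), the gene of the factor that holds the mature fat cell state, had no window peak in any library, and Cebpd (chromosome 16, 15887286 to 15889545), of the early factor C/EBPdelta, had none either. Among 5034 protein-coding genes with records under 5000 bp, 47.3% had no window peak in any library, so empty windows are common at this length. A peak lay just outside the Cebpa window in every library, 6020 bp upstream of the gene in FAD, 6090 bp in HFD and 6091 bp in ND, with scores of 148, 253 and 325. At Cebpd the nearest peaks were farther off, 42798 bp from the record in FAD, 15099 bp in HFD and 42785 bp in ND.

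Cebpb (chromosome 2, 167688915 to 167690432), the early factor gene with the CpG-richest promoter shown above, had 1 peak in FAD, 2 in HFD and 0 in ND. The FAD peak at 167695422 to 167695835 had a score of 99.0 and began 4990 bp beyond the record, so most of it lay outside the window. In HFD a peak at 167686179 to 167686724, with a score of 59.0, ended 2191 bp upstream of the start, and another at 167692240 to 167692513, with a score of 92.3, lay 1808 bp beyond the record. No 2 of these peaks overlapped, and the nearest ND peak was 8214 bp from the record. That last HFD peak was 274 bp wide, where the narrowest 10% of HFD peaks ended at 367 bp. Both downstream peaks lay in the record of the neighbouring transcript A530013C23Rik. Outside the window, the nearest ND peak began 9731 bp downstream of the start, with a score of 261. FAD and HFD had peaks at the same site, from 9793 and 9800 bp downstream, with scores of 105 and 203.5.

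Srebf1 (chromosome 11, 60199084 to 60224186), the gene of the lipogenic factor SREBP1, had 1 window peak in FAD, 3 in HFD and 3 in ND, spread over 4 regions. A region at 60206740 to 60207128 was present in FAD (score 59.0) and ND (63.9) and not in HFD. Regions at 60202635 to 60203017 and 60205026 to 60205860 were present in HFD, with scores of 85.2 and 66.8, and in ND, with 61.0 and 74.1. The fourth, at 60223520 to 60223829, was found in HFD only, with a score of 118 at percentile 59.0. It lay inside the gene record, which reaches 60224186, and ended 939 bp upstream of the first annotated start. The nearest peaks of FAD and ND lay 6040 and 6155 bp from it. Over all start windows, 6.55% had a peak in HFD and none in FAD and 5.68% had one in HFD and none in ND, so 1 of 15 is near the background. Its width of 310 bp is among the narrowest 10% of HFD peaks.

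Klf15 (chromosome 6, 90461043 to 90491803), the gene of a Krüppel-like factor, had 2 window peaks in FAD, 3 in HFD and 2 in ND, with median score percentiles of 48.7, 80.4 and 72.8. One at 90485363 to 90486125 was present in FAD with a score of 103 (percentile 54.0), in HFD with 197 (80.4) and in ND with 178 (77.7). At 90477990 to 90478705 there was a peak in HFD (199) and ND (140) and none in FAD, while at 90474037 to 90474505 there was a peak in FAD (87.7) and HFD (106) and none in ND. The nearest peak to its start, which has 37 CpGs, was 11530 bp away in FAD, 11461 bp in HFD and 15444 bp in ND.

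Zfp423 (chromosome 8, 87661810 to 87962053), the gene that commits precursors to the fat lineage, had the most peaks: 18 in FAD, 32 in HFD and 19 in ND. Per 100 kb of window these are 5.80, 10.3 and 6.12 peaks, higher than in 78.6%, 86.5% and 76.6% of the 2429 long genes. They formed 35 regions, of which 12 (34.3%) were present in all 3 libraries, against 39.0% in protein-coding windows. The strongest, at 87707125 to 87707812, had scores of 633 in FAD, 936 in HFD and 633 in ND, at percentiles 99.4, 99.8 and 98.9. A wide region of 2163 bp at 87779951 to 87782113 was covered by 2 peaks in FAD (top score 168), 1 in HFD (454) and 1 in ND (267). Its midpoint lay inside the gene, 23407 bp downstream of the second start.

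Other regions of Zfp423 were missing from 1 or 2 libraries. The highest in FAD and HFD only lay at 87927944 to 87928398, with scores of 211 and 225, inside the overlapping record Gm34412. In HFD and ND only it was 87883464 to 87883803 (118 and 65.7), and in FAD and ND only 87798048 to 87798523 (69.0 and 50.1). Found in 1 library alone, the highest were 87712139 to 87712605 in FAD (54.1), 87951152 to 87951455 in HFD (154) and 87897982 to 87898348 in ND (62.3). That HFD region is the peak nearest to the first start, 8140 bp downstream of it. At the 3′ end of the record a cluster of 3 regions between 87660192 and 87661846 held 1 FAD peak, 3 HFD peaks and 1 ND peak. The outer HFD peaks of that cluster lay at most 146 bp from a FAD peak and an ND peak.

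Ebf2 (chromosome 14, 67233292 to 67430952), the brown and beige precursor gene, was the gene with the highest share of regions present in all 3 libraries. It had 13 peaks in FAD, 18 in HFD and 15 in ND, or 6.26, 8.67 and 7.22 per 100 kb, higher than in 82.2%, 76.7% and 83.8% of long genes. Of its 21 regions, 11 (52.4%) were present in all 3 libraries, where the share over all 84853 regions in protein-coding windows was 39.0%. The region with the highest score in HFD and ND, at 67376255 to 67377208, scored 141 in FAD, 278 in HFD and 183 in ND. The region with the highest score in FAD, at 67299562 to 67300371, scored 177 in FAD (percentile 80.4), 231 in HFD (85.0) and 55.1 in ND (6.29), and one at 67246854 to 67247737 scored 52.9 in FAD (3.33), 228 in HFD (84.6) and 105 in ND (52.9). Regions shared by all libraries could thus differ widely in score.

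Other Ebf2 regions were missing from some libraries. In HFD and ND only, the highest lay at 67413819 to 67414693, with scores of 104 and 58.9. Those of a single library were 67331603 to 67331949 in FAD (69.8), 67288876 to 67289546 in HFD (103) and 67231700 to 67232266 in ND (79.6). The ND region stood 1026 bp outside the lower end of the record, and lay 14588 bp from any FAD peak and 12265 bp from any HFD peak. The strand and start of Ebf2 were not set here. Part of the record is shared with the transcripts 4930438E09Rik and Gm52149, which 9 of the regions overlapped.

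Ebf1 (chromosome 11, 44618100 to 45008096), which promotes adipogenesis and is also known for B cell development, is the longest of the 10 genes. It had 11 peaks in FAD, 22 in HFD and 9 in ND, or 2.75, 5.50 and 2.25 per 100 kb. The densities in FAD and ND were higher than in 40.4% and 28.4% of long genes, and the HFD density higher than in 52.2%, so in HFD it stood in the middle of its length class. Of 24 regions, 10 (41.7%) were found in HFD only and 6 in all 3 libraries, where the shares over protein-coding windows were 24.6% and 39.0%. The strongest, at 44941577 to 44942413, scored 331 in FAD, 545 in HFD and 244 in ND, at percentiles 94.4, 98.3 and 87.1. Beyond it, no library had a peak for 63391 bp, up to the FAD peak at 45005805 to 45006132 (74.5) near the end of the record.

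Among the Ebf1 regions that differed, 44773151 to 44773694 had the highest score of those in FAD and HFD only (64.5 and 93.1), and 44864275 to 44864822 of those in HFD and ND only (115 and 129). The highest in FAD alone, 44863799 to 44864139 (92.1), ended 136 bp before that HFD and ND region, beside peaks of both other libraries. In HFD alone the highest was 44667959 to 44668402 (135). In the upstream flank, a region at 44613104 to 44613588 had a peak in HFD (67.4) and ND (51.0) and none in FAD, and it ended 4512 bp before the first start.

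A run of HFD-only regions stood out in Ebf1. Between 44643977 and 44740973, a stretch of 96997 bp, HFD had 7 peaks and FAD and ND had none. Their scores ran from 52.3 to 135, with a median of 88.2. This stretch was singled out after its values were seen. Over the genome there were 28521 runs of neighbouring regions found in HFD only, and 9 of them had 7 or more regions, the longest 8. In FAD and ND the longest runs of that kind had 5 and 4 regions. Those lengths are not comparable, because 38062 regions of the genome were found in HFD only, against 10627 in FAD only and 12738 in ND only. When HFD was reduced to its 95501 highest-scoring peaks, the length of the FAD list, 5 of the 7 regions kept their peak. Runs were not recounted with lists of equal length.

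**Figure D3:**
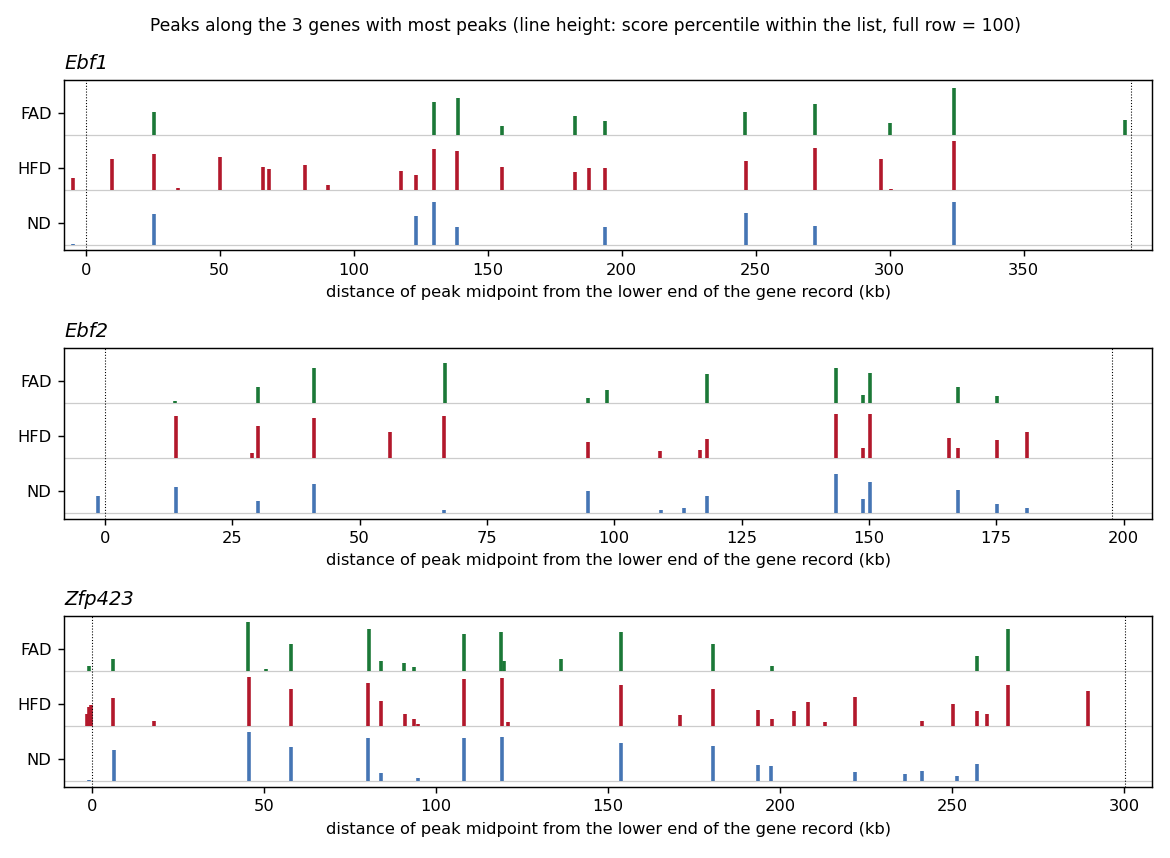
Peaks along Ebf1, Ebf2 and Zfp423, with the distance of the peak midpoint from the lower end of the gene record in kb on the x axis, 1 row per library, and line height as the score percentile within that library. Dotted lines mark the record ends; in Ebf1, HFD has 7 peaks in a stretch of 96997 bp where FAD and ND have none.

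**Figure D4:**
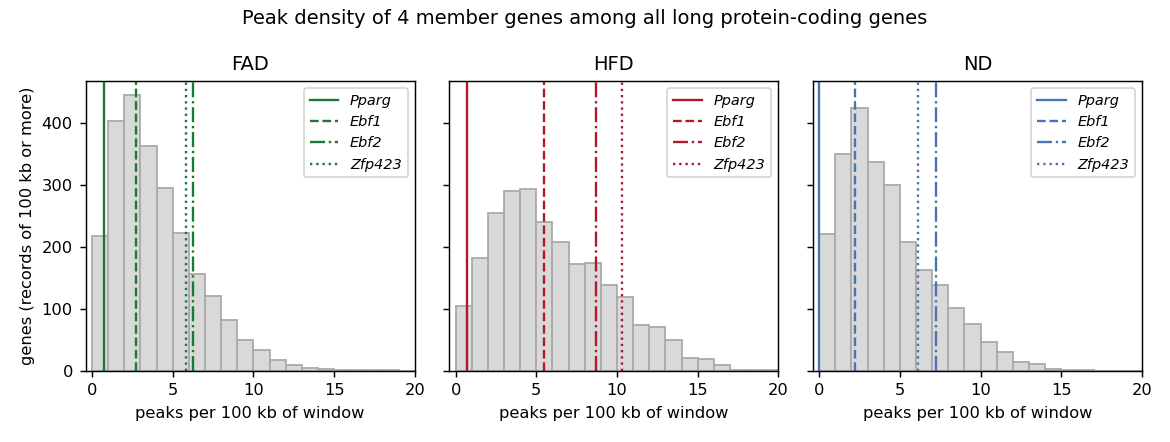
Histograms of peaks per 100 kb of window (x axis) over the 2429 protein-coding genes with records of 100 kb or more (y axis, number of genes), 1 panel per library, with lines at Pparg, Ebf1, Ebf2 and Zfp423. Pparg lies at the left edge of every panel, and Ebf2 and Zfp423 lie right of the middle.

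The comparison of HFD with ND shows where peak calls differ between the high-fat and the normal-diet library. The 10 genes held 90 regions present in HFD, ND or both. Of these, 40 (44.4%) were in HFD and not in ND, where the share over all protein-coding windows was 35.4%, and 5 (5.56%) were in ND and not in HFD, where it was 10.3%. Ebf1 gave 13 of 22 regions to the first kind, Zfp423 15 of 34 and Ebf2 5 of 20. Gene by gene, 7 of the 10 had more window peaks in HFD than in ND and none had fewer, while 46.5% of all protein-coding genes had more. This share, like those of the other pairs and lists below, is not matched for record length. Shares of all genes with fewer peaks were not counted, for this pair or the pairs and lists below. Pparg and Cebpb were the 2 genes with window peaks in HFD and none in ND (background 8.23%), and no member showed the reverse (background 1.97%).

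Cutting the lists to equal length changed the size of this difference. With 95501 peaks per library, 25 of 71 regions (35.2%) were in HFD and not in ND, against 22.9% over all protein-coding windows, and 14 (19.7%) were in ND and not in HFD, against 19.7%. At the 45 regions that HFD and ND shared, the score percentile was higher in HFD at 30 (66.7%), close to the background of 67.4%. The regions share their 2 libraries, and what sets the longer HFD list, in depth or otherwise, was not tested.

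Setting FAD against HFD shows which peak calls differ between the high-fat library with folic acid and the high-fat library without it. Of 93 regions present in FAD, HFD or both, 8 (8.60%) were in FAD and not in HFD, near the background of 8.68%. In HFD and not in FAD there were 48 (51.6%), where the background was 39.7%. Zfp423 gave 17 of 34 regions to the second kind, Ebf1 13 of 24, Ebf2 7 of 19 and Rxra all 4. With lists of equal length the shares were 14 of 71 (19.7%), against 19.2%, and 26 of 71 (36.6%), against 24.4%. No member had more window peaks in FAD than in HFD, which 6.86% of all protein-coding genes had. Fewer were counted at 7 members, but the FAD list is shorter and the share of all genes with fewer was not counted. Rxra was the 1 gene with window peaks in HFD and none in FAD (background 10.5%), and no member showed the reverse (background 1.64%).

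FAD and HFD shared 37 regions. The score percentile was higher in FAD at 5 of them (13.5%), where the background was 29.3%. Percentiles are ranks in lists of different length, so a lower rank in 1 library is no measure of less methylation, here or in the other pairs. In Zfp423 this was 1 of 15 regions, in Ebf1 2 of 9, in Ebf2 2 of 11 and in Klf15 0 of 2. Peaks also differed in width: at the 30 regions present in all 3 libraries, the median width was 489 bp in FAD, 611 bp in HFD and 504.5 bp in ND, and HFD had the widest peaks at 21 (70.0%), against 72.4% over all such regions in protein-coding windows.

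**Figure D5:**
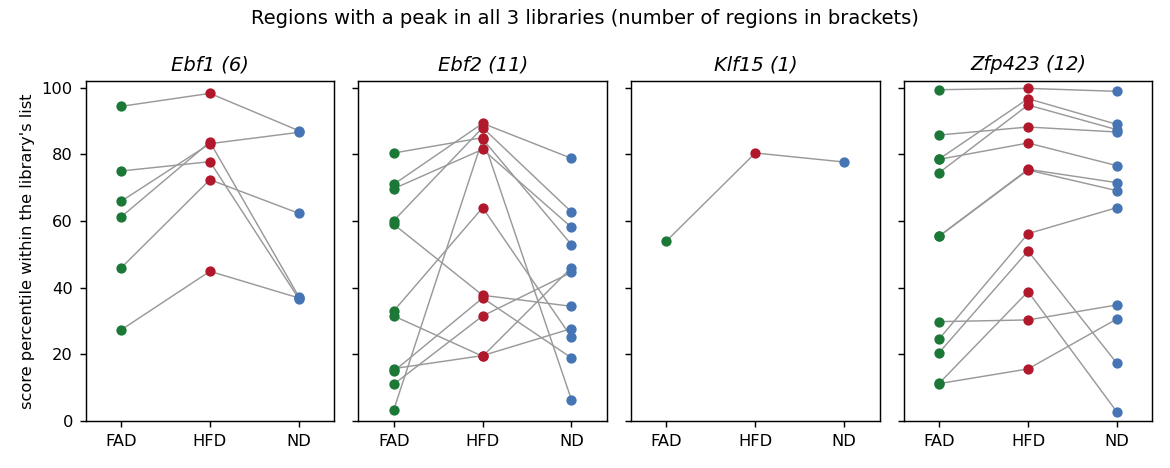
Score percentile within each library's list (y axis) for the 30 regions with a peak in FAD, HFD and ND (x axis), with 1 panel per gene and lines joining the values of a region. HFD has the highest percentile at 22 of the 30 regions (73.3%), against 57.7% of such regions over all protein-coding windows.

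FAD and ND form the last pair. Of 63 regions present in FAD, ND or both, 13 (20.6%) were in FAD and not in ND, against a background of 19.4%, and 18 (28.6%) were in ND and not in FAD, against 26.1%. Both shares lie near the background. Ebf1 gave 5 regions to the first kind and 3 to the second, Zfp423 4 and 6, and Ebf2 1 and 4. More window peaks in FAD than in ND were counted at 3 genes, Pparg, Cebpb and Ebf1, and fewer at 4, Srebf1, Ebf2, Rxra and Zfp423, where 19.0% of all protein-coding genes had more in FAD. Pparg and Cebpb had window peaks in FAD and none in ND (background 4.16%), with that of Cebpb only at the window edge. Rxra had window peaks in ND and none in FAD (background 6.76%). At 32 shared regions the score percentile was higher in FAD at 12 (37.5%, background 45.8%). These 3 comparisons share their libraries and are not independent of each other.

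Regions found in 1 library only numbered 6 in FAD with scores from 54.1 to 99.0, 33 in HFD with scores from 50.1 to 154, and 3 in ND with scores from 58.5 to 79.6. Their median scores were 72.2 in FAD, 79.6 in HFD and 62.3 in ND, and those of all such regions in protein-coding windows were 64.5, 68.2 and 64.7. Both sets of medians lie under the medians of the whole lists, 97.1 in FAD, 100.4 in HFD and 100.9 in ND. Of the HFD ones, 8 (24.2%) were narrower than 367 bp, against 17.1% of all such regions in protein-coding windows. As a share of the 96 regions of the 10 genes, those found in HFD only made up 34.4%, against 24.6% in all protein-coding windows, and those present in all 3 libraries 31.2%, against 39.0%.

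Other genes of the adipogenic network were read from 3 lists of 25 genes each, all of which matched the annotation. Regulators that promote adipogenesis, such as coactivators and further Krüppel-like factors, had window peaks at all 25 genes in each library. Regulators that restrain it had them at 20 genes in FAD, 21 in HFD and 20 in ND, and target genes of PPARgamma, C/EBPalpha or SREBP1 at 21, 24 and 22. The shares of all protein-coding genes with a window peak were 69.1% in FAD, 77.9% in HFD and 71.7% in ND. Medians per gene were 3 peaks in FAD, 4 in HFD and 3 in ND for the first list, 2, 3 and 3 for the second, and 2, 3 and 2 for the targets, beside 1, 3 and 2 for the 10 genes and 1, 2 and 1 for all protein-coding genes. More peaks in HFD than in ND were counted at 16, 12 and 11 of the 25 genes in each list and fewer at 3, 3 and 5, where 46.5% of all protein-coding genes had more. Peaks in FAD outnumbered those in HFD at 2, 2 and 4 genes and were outnumbered at 15, 13 and 17, where 6.86% of all protein-coding genes had more in FAD. For genes with fewer peaks, in either pair, no share of all genes was counted.

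Peaks in HFD and none in ND were found at 0, 1 and 2 genes of the 3 lists, and peaks in HFD and none in FAD at 0, 2 and 3. Over all protein-coding genes these shares were 8.23% and 10.5%. Among the restraining factors, Foxc2, a forkhead gene, had 1 peak in HFD (score 62.8) and none in FAD or ND, and Nr2f2, a nuclear receptor gene, had 1 in FAD (51.7) and none in HFD or ND. Runx1t1, a corepressor gene, had 3 peaks in HFD (top score 201) and 1 in ND (107), and none in FAD. Among the targets, the resistin gene Retn had 1 peak in FAD (68.1), 2 in HFD (top score 182) and none in ND, and the lipid droplet gene Cidec had 3 in HFD (top score 57.3) and none in FAD or ND. The lipoprotein lipase gene Lpl had 1 peak in HFD (127) and 1 in ND (84.7), and Agpat2, of triglyceride synthesis, had 1 in HFD (68.7) and 1 in ND (104), and neither had one in FAD.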

How the data were processed

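The 3 libraries of methylated DNA from epididymal fat were assigned to the diets by their labels. For each library the authors deposited a peak list, whose coordinates follow mm10 according to the submitters' processing notes. The names of the peaks begin with MACS, a peak caller. Its version and settings, the control sample, the aligner, duplicate removal and read depth are not stated there, so no interval that needs depth is printed. Each peak has a deposited score, of at least 50 and of unstated scale. Scores were therefore ranked within each list as percentiles.

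Gene records came from RefSeq, assembly GRCm38.p6, the assembly of mm10, and start sites from its promoter table, which matched 8 of the 10 genes. A peak was counted for a gene when it overlapped the record plus 5000 bp on each side by 1 bp. Peaks of the 3 libraries that overlapped by 1 bp were joined into regions, and a region was present in a library that had a peak in it. The comparison set was 21887 protein-coding genes and the 84853 regions in their windows. Exons and introns were not analysed here, and no genome sequence was used outside the promoter table. With 1 library per diet no test was made, and regions of 1 library are not replicates.

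The 10 genes, the gene lists, the rule that names regions and the alternatives were chosen with earlier results of these data known. All 10 genes are named, with the highest-scoring region of each pattern of presence and any region at a start site or record end. Genes of the other pathway lists are named when 1 library of a pair had window peaks and the other none. Marker lists of cell types are given as counts. The length classes and the removal of Ebf1, Ebf2 and Zfp423 were added after the data were seen. The overlap code was tested on simulated intervals. Python 3.11.15, numpy 2.4.6, pandas 2.3.3 and matplotlib 3.10.9 were used.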

Additional observations from a re-analysis of the deposited data

How the results depend on the processing

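Of 96 recomputed counts under 9 alternatives, 57 stayed within 1.5 times of the reported value and 39 did not. None of the 9 reversed the order of HFD and ND or of HFD and FAD. Only the lists of equal length took away the greater length of the HFD list, so the other settings say little on that order. Counts with windows of 0 or 2000 bp of flank, with peak midpoints and with peaks within 500 bp joined all stayed within 1.5 times. Genes with a FAD peak were 6 and not 7 with either flank or with midpoints, because the Cebpb peak was then left out. The 50% of peaks with the highest scores gave 19 peaks in FAD, 34 in HFD and 19 in ND, with 5 genes marked in HFD. Regions then numbered 16 in HFD and not ND against 1 in reverse, 2 in FAD and not HFD against 17, and 6 in FAD and not ND against 6. A score of at least 100 gave 18, 35 and 19 peaks, 4 genes marked in FAD and 5 in HFD, and regions of 17 against 1, 1 against 18, and 5 against 6. Lists of equal length gave 25 against 14 and 14 against 26. A reciprocal overlap of 50% gave 8 ND peaks without an HFD peak and 13 FAD peaks without one. Without Ebf1, Ebf2 and Zfp423, chosen after the data were seen, 5, 13 and 7 peaks remained in FAD, HFD and ND at 4, 5 and 3 genes, with regions of 7 against 1, 3 against 11, and 3 against 5. Fewer peaks pass a higher score by construction, and the cause of the other shifts was not tested. Read depth is unknown, so a missing peak may be a matter of depth. No paired analysis was possible because each diet has 1 library.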
